A study of Mus musculus with 32 samples.

Results

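Mast cells and basophils are granulocytes that carry a surface receptor for immunoglobulin E and release histamine, proteases and lipid mediators when it is cross-linked. Both arise from bone marrow progenitors, and the genes of their programme can already lie in open chromatin in the stem and progenitor cells above them. Open chromatin near 6 such genes was examined here. Cd200r3 encodes an activating receptor of the CD200 receptor family found on mouse basophils and mast cells. Cd200r1 encodes the inhibitory CD200 receptor. Ms4a2 encodes the beta subunit of the high-affinity immunoglobulin E receptor. Cpa3 encodes the granule protease carboxypeptidase A3, and Hdc encodes histidine decarboxylase, which makes histamine. Mitf encodes a basic helix-loop-helix leucine zipper transcription factor that mast cell development needs.

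A region was a stretch covered by peaks merged over all libraries, and it was linked when one of the 6 had the closest protein-coding gene model, no more than 50 kb away. This linked 68 of the 146713 regions in the complete peak lists. Cd200r3 had 16, Cd200r1 6, Ms4a2 6, Cpa3 6, Hdc 12 and Mitf 22. Of the 68, 4 had a peak in all 16 lists and 13 in a single list. Such a link rests on distance alone and says nothing of a region's target. The farthest linked region lay 47.2 kb before the Mitf model, with a peak in 6 lists, and the nearest one beyond the limit lay 66.1 kb before it, with a peak in 2. The genes were proposed with the LPS results at Cd200r3 known, so every LPS difference near the 6 genes is a description with no test.

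Chromatin accessibility was measured by ATAC-seq in wild-type haematopoietic stem and progenitor cells of the marrow (HSPCs), sorted as CD45.1+/2+ Lin- cKit+ Sca1+ cells, from 16 biological replicates in 4 groups. AF9-experienced mice were lethally irradiated C57BL/6J recipients (CD45.2) given 200000 marrow cells from inducible MLL-AF9 donors (CD45.1, homozygous for hMLL-AF9 and rtTA) with 800000 marrow cells from wild-type CD45.1+/2+ donors. Naive mice received 200000 hMLL-AF9-null cells that carried rtTA only, with the same wild-type cells. Doxycycline was given from 6 to 8 weeks after transplantation for 5 weeks and then withdrawn for 4 weeks, and the labels name no other schedule for naive mice. The groups were AF9-experienced LPS (n = 5), AF9-experienced PBS (n = 4), naive LPS (n = 3) and naive PBS (n = 4), all taken 24 h after injection. The sorted cells descend from the wild-type donors, which carried neither transgene, and had shared the marrow with iMLL-AF9 cells or, in naive mice, with null cells.

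The lists held 60841 to 86677 peaks in AF9-experienced LPS libraries, 25685 to 88816 in AF9-experienced PBS, 39464 to 77057 in naive LPS and 19448 to 80216 in naive PBS libraries. Because lengths differed, only the 19100 top autosomal peaks of each list by the authors' -log10 p were kept, and a region's value was the percentile of its best peak within that list: 100 is the top of the list, and 0 marks a region without a peak among the 19100. The lists of AF9-experienced PBS 1, naive LPS 3 and naive PBS 1 were short. Without these, the other 13 libraries allowed longer lists of 59600 peaks. Peak strength also moved with treatment, since the median fold enrichment in the 19100-peak lists was 9.16 to 13.6 in the other 7 LPS libraries and 13.9 to 19.4 in the other 6 PBS libraries. At least 2 peaks on chromosome Y were listed for all 3 naive LPS libraries and for AF9-experienced LPS 1 and 2, against at most 1 in any PBS library. The part that these played in the LPS differences below was not tested. Of 11 markers of the sorted population, 10 had a linked region in all 16 lists, and Ly6a, which encodes the sorted antigen Sca1, had none.

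Of 10 mast cell and basophil markers, 6 had a region in some 19100-peak list and 3 (Cd200r3, Cd200r1 and Mitf) in all 16. Cpa3, Fcer1a, Mcpt8 and Tpsb2, which encode mature granule and receptor proteins, were at 0 in every list. The summed percentile of the 10 genes was 152 to 237 in AF9-experienced LPS, 173 to 181 in AF9-experienced PBS, 171 to 232 in naive LPS and 158 to 183 in naive PBS libraries. The marrow was lineage-depleted before the sort, and the Lin- gate is meant to remove mature blood cells. Among markers of such cells, eosinophil genes summed to 36.6 to 110 in AF9-experienced LPS, 0.0 to 46.4 in AF9-experienced PBS, 37.3 to 50.9 in naive LPS and 0.0 to 25.1 in naive PBS libraries. Of those 7 eosinophil genes, 3 had a region in any list, and Epx, Prg2, Il5ra and Ear1 were at 0 throughout. Lymphocyte genes summed to at most 16.5 in any library, with Cd4, Cd8a, Cd79a and Ms4a1 among those at 0. A region in all 16 lists was found for 2 of 8 neutrophil granule, 2 of 6 monocyte and macrophage, and 4 of 6 erythroid and megakaryocyte genes. Gata1, of the last set, lies on chromosome X and could have no region, because only autosomal peaks were kept. Their part in the results was not tested, and in bulk cells a change in the number of cells of a type cannot be told apart from a change within each cell.

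The promoters are shown because the members differ in whether the start itself lay under a peak. The 250 bases before the first listed start are RefSeq sequence (GRCm38.p6), each 5′ to 3′ on the gene's own strand. Capitals mark GATA sites on either strand, that is AGATAA or its form AGATAG, and likewise TGATAA or its form TGATAG, the letters read by the GATA factors of the mast cell, erythroid and megakaryocyte lineages. Cd200r4, the neighbour of Cd200r3, is printed for comparison.
Cd200r3: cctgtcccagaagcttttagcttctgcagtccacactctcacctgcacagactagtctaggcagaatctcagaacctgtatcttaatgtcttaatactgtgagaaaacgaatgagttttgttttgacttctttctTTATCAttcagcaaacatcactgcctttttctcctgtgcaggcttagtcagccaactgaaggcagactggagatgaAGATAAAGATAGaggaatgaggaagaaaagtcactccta
Cd200r4: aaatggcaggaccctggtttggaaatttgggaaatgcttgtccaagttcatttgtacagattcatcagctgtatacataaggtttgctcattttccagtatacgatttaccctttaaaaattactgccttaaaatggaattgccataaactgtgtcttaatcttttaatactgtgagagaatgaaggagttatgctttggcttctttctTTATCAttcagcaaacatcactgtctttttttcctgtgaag
Ms4a2: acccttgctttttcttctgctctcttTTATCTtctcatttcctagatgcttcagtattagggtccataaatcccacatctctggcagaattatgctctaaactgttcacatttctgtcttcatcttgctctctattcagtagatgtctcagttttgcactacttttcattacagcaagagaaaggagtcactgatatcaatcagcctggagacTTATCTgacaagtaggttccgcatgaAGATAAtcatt
Cpa3: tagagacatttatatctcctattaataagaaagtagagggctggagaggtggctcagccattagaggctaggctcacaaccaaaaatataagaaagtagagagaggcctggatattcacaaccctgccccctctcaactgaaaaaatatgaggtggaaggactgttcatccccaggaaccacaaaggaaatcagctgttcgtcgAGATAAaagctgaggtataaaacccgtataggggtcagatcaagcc
Hdc: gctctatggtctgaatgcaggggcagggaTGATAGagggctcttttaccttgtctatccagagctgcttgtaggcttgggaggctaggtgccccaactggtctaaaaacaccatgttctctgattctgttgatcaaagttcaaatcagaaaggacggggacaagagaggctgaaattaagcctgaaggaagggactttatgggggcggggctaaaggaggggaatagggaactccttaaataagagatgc
Mitf: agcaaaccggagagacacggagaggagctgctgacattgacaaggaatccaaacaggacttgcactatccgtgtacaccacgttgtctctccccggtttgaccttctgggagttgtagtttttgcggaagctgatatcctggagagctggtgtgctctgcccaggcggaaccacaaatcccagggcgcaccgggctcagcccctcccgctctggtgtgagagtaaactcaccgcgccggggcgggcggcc
In order, these lie at chr16:44943428-44943677 (plus strand), chr16:44820478-44820727 (plus), chr19:11623720-11623969 (minus), chr3:20242182-20242431 (minus), chr2:126618679-126618928 (minus) and chr6:97806808-97807057 (plus). GATA sites numbered 3 for Cd200r3, 3 for Ms4a2, 1 for Cpa3, 1 for Hdc and 0 for the first Mitf start. Of 32817 RefSeq promoter windows of this length, 26.6% held at least 1 such site and 6.41% at least 2. The E-box forms CACGTG and CATGTG, which MITF can bind, occurred in none of these windows and in 17.6% of all windows. A match is a description of the letters, not of binding.

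Peaks over each window were counted from 250 bases before to 50 after the start. No complete list had a peak over the Cd200r3 or Ms4a2 window. The Cpa3 window had a peak in 13 lists, the Hdc window in 14 and the first Mitf window in all 16. Mitf has 2 further listed starts: the window of the middle one had a peak in 12 lists and the last in 0. A start for Cd200r1 was not listed. The Cd200r3 and Cd200r4 windows aligned over 156 bases, of which 140 were identical (89.7%). The Cd200r3 regions that had peaks lie elsewhere, and their sequence was not compared with Cd200r4. How reads that match both genes were counted is not given in the sources used here.

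The Cd200r3 gene model runs over chr16:44943596-45058365 on the plus strand and rests partly on predicted transcripts. Its open regions all lay away from the start. In the 19100-peak lists it had 3 regions, of which the strongest on average, chr16:44962586-44963435, lay 19.3 kb after the start and had a peak in all 16 lists. Its percentiles were 55.0, 64.2, 43.3, 57.0 and 71.8 in AF9-experienced LPS libraries and 45.7, 61.9, 64.4 and 53.9 in AF9-experienced PBS libraries. The percentiles were 63.2, 68.8 and 57.9 in naive LPS libraries and 65.1, 59.8, 61.1 and 54.1 in naive PBS libraries. The groups overlapped throughout, and the region ranked near the middle of the list or above it in most libraries of all 4 groups. LPS minus PBS was 1.82 ± 5.58 points (SE) in AF9-experienced and 3.25 ± 6.35 in naive mice.

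The region for which Cd200r3 was chosen, chr16:45025356-45025805, lay 81.9 kb after the start, inside the gene model (exon or intron is not in the annotation used). It stood at 62.8, 55.1, 73.4, 54.4 and 76.2 in AF9-experienced LPS libraries, against 26.2, 15.2, 15.3 and 9.34 in AF9-experienced PBS libraries. Every AF9-experienced LPS library was above every AF9-experienced PBS library. Naive LPS libraries had 65.0, 66.0 and 53.9, against 58.6, 0, 4.93 and 5.05 in naive PBS libraries. Here the groups overlapped through naive PBS 1, which has the shortest list of all. As a description, LPS minus PBS was 47.9 ± 9.51 points (SE) in AF9-experienced mice and 44.5 ± 10.8 in naive mice, and the difference between the 2 was 3.38 ± 14.4.

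The size of that difference depends on the lists. Without naive PBS 1 the naive value was 58.3, without naive PBS 2 it was 38.8, and without all 3 short lists it was 62.2. With the strongest 9550 peaks per list, the differences were 28.7 in AF9-experienced and 19.0 in naive mice. Longer lists gave 16.4 ± 2.18 and 21.7 ± 2.72 points, with all 7 LPS libraries at 85.4 to 92.4 and all 6 PBS libraries at 62.8 to 72.9, so the treatments did not overlap. A percentile point of a longer list spans more peaks, so points of different list lengths are not one unit. In the 3 AF9-experienced LPS libraries with no chromosome Y peak the region stood at 73.4, 54.4 and 76.2, and in the other 2 at 62.8 and 55.1.

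The value compared is a rank within a list, and the peak's own measures are given as a description. The authors' fold enrichment at this peak ranged from 12.1 to 18.2 in AF9-experienced LPS, 4.91 to 16.9 in AF9-experienced PBS, 8.35 to 16.5 in naive LPS and 6.22 to 15.3 in naive PBS lists, short lists included. Group medians, in that order, were 15.1, 15.6, 13.4 and 12.9. Folds are each library's own and are not scaled between lists, so no difference is read from them. The peak was 147 to 445 bases wide, its summits lay within 70 bases of each other in the 16 lists, and every list still had it at -log10 q of at least 5. Open chromatin was therefore detected here in all 4 groups, and the values compared above are how the peak ranked among the others.

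**Figure D1:**
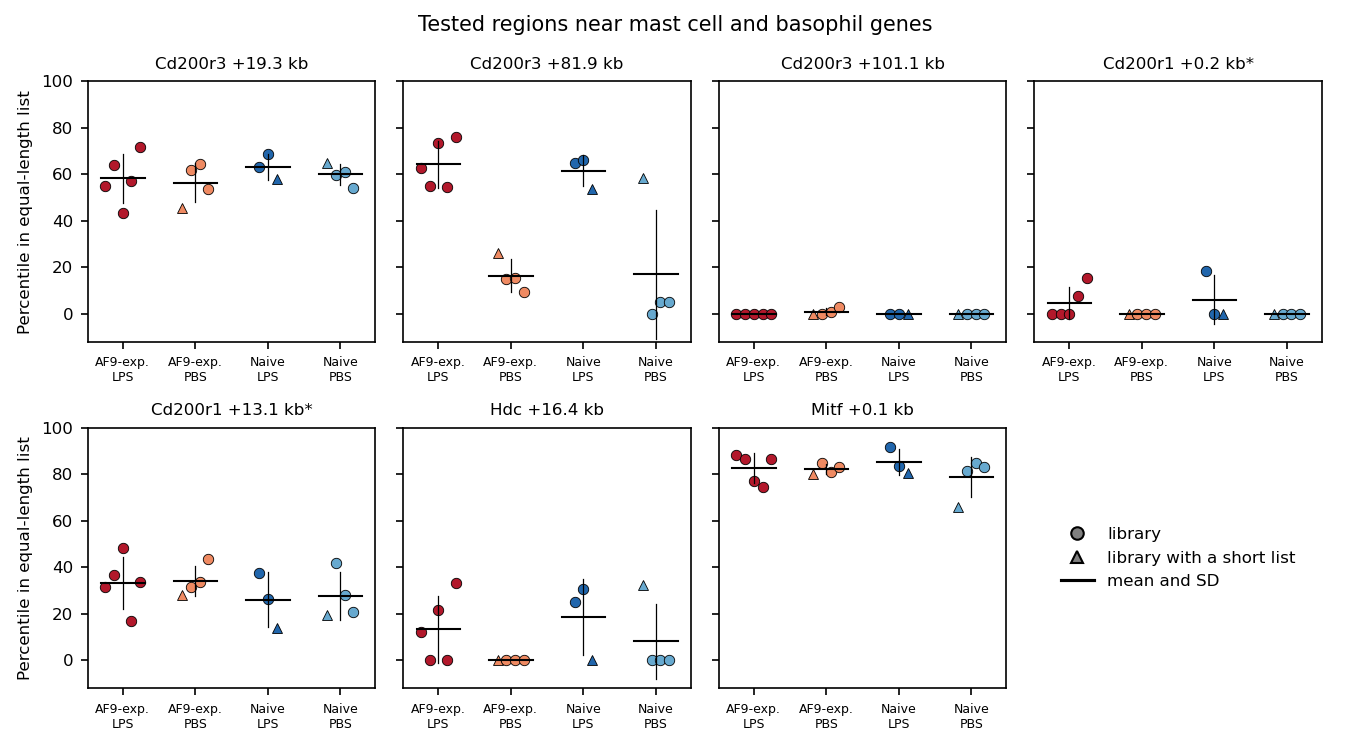
Percentile of the 7 tested regions in each library's 19100-peak list, by group; circles are libraries, triangles libraries with short lists, and lines the mean and SD. Panel names give the distance from the first RefSeq start (* from the lower end of the gene model). At Cd200r3 81.9 kb the 8 LPS libraries span 53.9 to 76.2 and the 8 PBS libraries 0.0 to 58.6, the highest being the short-listed naive PBS 1.

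The third Cd200r3 region, chr16:45044259-45045354, passed the filter of 3 lists only through PBS libraries, at 0.82 and 3.06 in AF9-experienced PBS 3 and 4 and 0.14 in naive PBS 3, so it had to lean that way. In the longer lists, where 10 of its 11 regions were tested, it was present in all 13 libraries at 44.4 to 65.1 after LPS and 62.7 to 68.9 after PBS. A closer neighbour of the region at 81.9 kb ran the other way. The region chr16:45023995-45024384, 80.5 kb after the start, stood at 45.0, 43.9, 27.4, 0 and 0 in AF9-experienced LPS libraries, against 61.3, 58.8 and 55.9 in AF9-experienced PBS libraries 2 to 4. Naive LPS 1 and 2 had 35.8 and 0, against 48.2, 58.9 and 63.9 in naive PBS 2 to 4. Every LPS library was below every PBS library, although both peaks lie within the same gene model. LPS minus PBS was -35.4 ± 11.5 points (SE) in AF9-experienced and -39.1 ± 14.3 in naive mice, in a fit without the 3 short lists.

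Cd200r1, the inhibitory receptor, has its model at chr16:44765736-44794977, and none of its regions separated the treatments. Its leading region, chr16:44778476-44779191, lay 13.1 kb from the lower end of the model and had a peak in all 16 lists. It stood at 31.5, 36.7, 48.2, 16.9 and 33.7 in AF9-experienced LPS libraries and at 28.4, 31.8, 33.6 and 43.5 in AF9-experienced PBS libraries. Naive LPS libraries had 37.7, 26.5 and 14.0, and naive PBS libraries 19.6, 41.9, 28.1 and 20.8. The groups overlapped, and LPS minus PBS was -0.89 ± 7.82 points (SE) in AF9-experienced and -1.53 ± 8.90 in naive mice. A second region over the lower end of the model, chr16:44765634-44766177, had a peak in 3 of the 19100-peak lists, all of them LPS libraries, at 7.54, 15.5 and 18.3. It met the filter of 3 lists through these alone, so it had to lean that way. In the longer lists it was present in all 13 libraries, at 39.5 to 73.8 after LPS and 50.1 to 63.2 after PBS, which overlap.

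Ms4a2 (chr19:11615517-11623790, minus strand) had 2 regions in the 19100-peak lists, in 2 lists and 1 list, so neither was tested. Both lay beyond the gene's far end rather than at its start. The first was listed at 16.4 in AF9-experienced LPS 3 and 21.8 in naive LPS 2, and the second at 6.72 in AF9-experienced PBS 1. In the longer lists the first, chr19:11611571-11612070, 11.9 kb after the start, was at 62.4, 63.0, 73.2, 61.9 and 61.0 in AF9-experienced LPS and 52.7, 56.5 and 60.5 in AF9-experienced PBS libraries. It was at 66.6 and 75.0 in naive LPS and 64.8, 64.1 and 57.4 in naive PBS libraries. The 7 LPS libraries (61.0 to 75.0) thus overlapped the 6 PBS libraries (52.7 to 64.8). Fcer1a, which encodes the ligand-binding subunit of the same receptor, had 1 region in the complete lists, with a peak in 5 of them.

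Cpa3 (chr3:20215616-20242209, minus strand) had no region in any 19100-peak list, so its chromatin was seen only at lower ranks. In the longer lists its start region, chr3:20241968-20242515, had a peak in all 13 libraries. It stood at 41.4, 2.19, 36.9, 34.7 and 55.6 in AF9-experienced LPS and 38.5, 49.5 and 44.4 in AF9-experienced PBS libraries. It stood at 35.4 and 30.5 in naive LPS and 35.5, 17.3 and 32.6 in naive PBS libraries. The groups overlapped, with AF9-experienced LPS 2 lowest. A region 1.9 kb before the start, chr3:20243921-20244256, was listed in 6 of 7 LPS libraries at up to 32.2 and in none of the 6 PBS libraries at this list length. It met the filter of 3 lists through LPS libraries alone, so it had to lean that way. In the complete lists it had a peak in 10 libraries, PBS ones included.

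Hdc (chr2:126593659-126624025, minus strand) had 4 regions in the 19100-peak lists, of which 1 was tested, and 10 in the longer lists, of which 8 were tested. The leading one, chr2:126601927-126602706, lay 16.4 kb after the start. It was at 12.1, 0, 21.8, 0 and 33.4 in AF9-experienced LPS and at 0 in all 4 AF9-experienced PBS libraries. It was at 25.1, 30.6 and 0 in naive LPS libraries, against 32.6, 0, 0 and 0 in naive PBS libraries. The single PBS library with a peak among its 19100 strongest was again naive PBS 1. The region met the filter of 3 lists only through LPS libraries, so it had to lean that way in these lists. Without the 3 short lists, LPS minus PBS in naive mice was 27.8 ± 8.37 points (SE), against 10.4 ± 9.22 with them, and it was 13.5 ± 8.10 in AF9-experienced mice with all lists.

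In the longer lists this Hdc region was present in every library. It stood at 71.8, 63.9, 74.9, 66.0 and 78.7 in AF9-experienced LPS libraries, against 62.2, 50.4 and 44.6 in AF9-experienced PBS libraries. Naive LPS libraries had 76.0 and 77.7, against 29.9, 50.5 and 51.3 in naive PBS libraries. No LPS library overlapped a PBS library, and LPS minus PBS was 18.6 ± 5.76 points (SE) in AF9-experienced and 33.0 ± 7.20 in naive mice. The region over the Hdc start, chr2:126618474-126619500, also did not overlap: it ranged from 42.2 to 66.7 over the 7 LPS libraries and from 23.2 to 35.1 over the 6 PBS libraries. At the opposite end of the gene, chr2:126593763-126594427 ranged from 28.1 to 54.8 after LPS and from 53.7 to 62.1 after PBS. There the ranges met only at their edge, with the higher values after PBS.

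Mitf (chr6:97807002-98021360, plus strand) had the strongest region of the 6 genes. The region over its first start, chr6:97806644-97807630, was in all 16 lists, at 88.4, 86.8, 77.2, 74.6 and 86.6 in AF9-experienced LPS and 80.0, 85.0, 81.1 and 83.2 in AF9-experienced PBS libraries. Naive LPS libraries had 91.7, 83.7 and 80.8, and naive PBS libraries 66.0, 81.3, 85.1 and 83.2. The groups overlapped, and LPS minus PBS was 0.39 ± 3.70 points (SE) in AF9-experienced and 6.50 ± 4.21 in naive mice. The start of Mitf was therefore open at a high rank whatever the treatment.

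Inside Mitf, by contrast, 2 weaker regions separated the treatments in the longer lists. The region chr6:97887781-97888285, 81.0 kb after the first start, stood at 57.5, 57.7, 55.6, 54.2 and 53.4 in AF9-experienced LPS and at 62.5 and 57.6 in naive LPS libraries. It was at 0 in all 3 AF9-experienced PBS and all 3 naive PBS libraries. Because 0 means only that no peak was among the 59600 strongest, the complete lists were read too, and they held it at rank 75073 in AF9-experienced PBS 2 and rank 63699 in naive PBS 4. It was in none of the 3 short lists, that of naive LPS 3 included. Among the longer lists it met the filter of 3 lists through LPS libraries alone, so it had to lean that way. LPS minus PBS was 55.7 ± 7.49 points (SE) in AF9-experienced and 60.1 ± 9.36 in naive mice, in the fit without the short lists.

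The second, chr6:97866514-97867025, lay 59.7 kb after the first Mitf start. It stood at 51.2, 26.7, 45.6, 57.7 and 56.3 in AF9-experienced LPS libraries, against 12.0, 17.0 and 16.4 in AF9-experienced PBS libraries. In naive mice it was at 45.2 and 46.7 in the LPS libraries, against 0, 6.99 and 16.4 in the PBS libraries. All 7 LPS libraries were above all 6 PBS libraries, and LPS minus PBS was 32.4 ± 8.87 points (SE) in AF9-experienced and 38.1 ± 11.1 in naive mice. The region over the middle Mitf start, chr6:97929415-97930078, did not follow it: it ranged from 0.0 to 49.3 after LPS and from 13.6 to 53.8 after PBS.

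**Figure D2:**
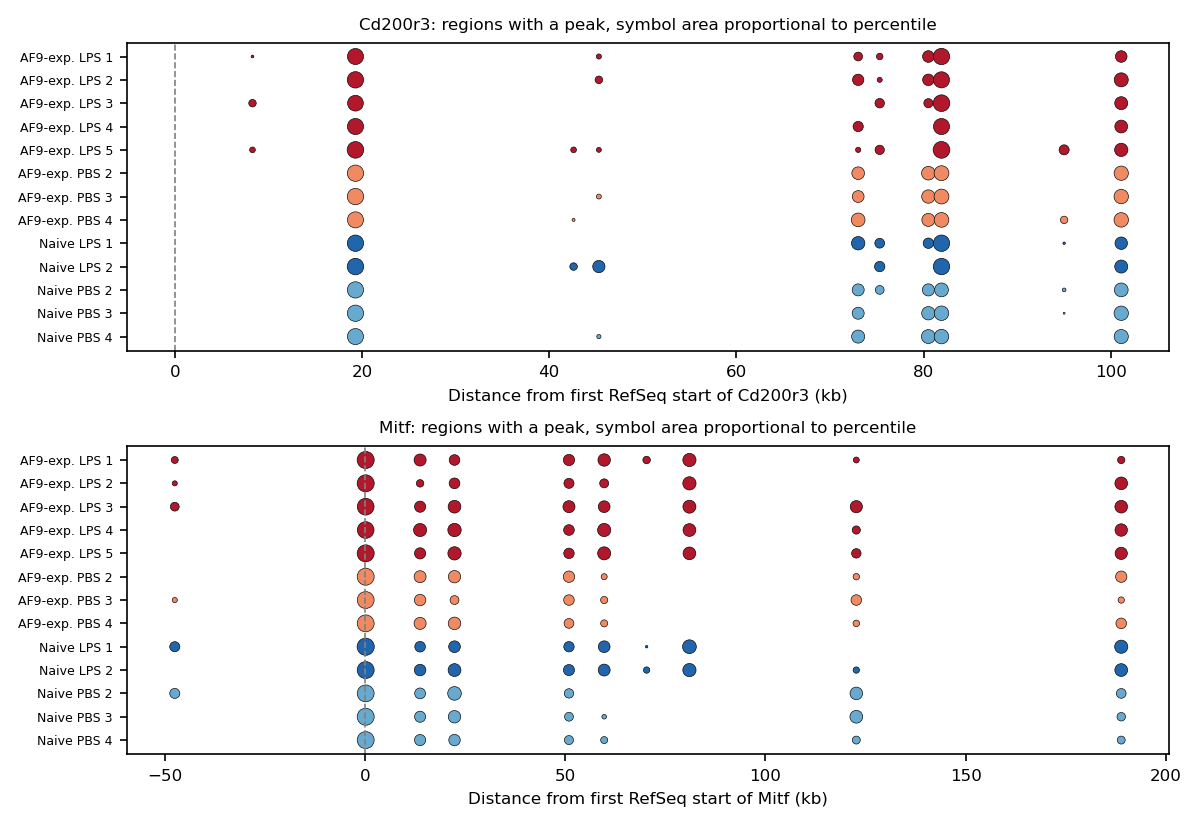
Regions with a peak along Cd200r3 (upper) and Mitf (lower) in the 13 longer lists; the x axis is the distance from the first RefSeq start in kb, each row is a library and the symbol area is proportional to the percentile. The Mitf region at 81.0 kb has symbols in the 7 LPS rows and in none of the 6 PBS rows, and the Cd200r3 region at 80.5 kb is smaller or missing in the LPS rows.

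Over the 38 member regions tested in the longer lists, 5 had every LPS library above every PBS library, where 4.5% of all 70009 tested regions did, and 1 had every LPS library below, where 5.06% did. These were the Cd200r3 region at 81.9 kb, both Hdc and both Mitf regions just described, and the Cd200r3 region at 80.5 kb. Calls at the limma adjusted p under 0.05 are counted next as a description, and at these member regions they are no test. Called higher were 4 of the 38 in AF9-experienced mice, where 4.93% of all regions were called higher and 10.5% in either direction. In naive mice 4 were called higher, where 3.91% of all were called higher and 6.73% in either direction. In the 19100-peak lists 1 of 7 was called higher in each background, against 3.44% of 23554 regions in AF9-experienced mice (5.18% in either direction) and 2.0% in naive mice (3.22%), and 0 of 7 had all LPS libraries above (1.9% of all regions) or below (0.807%) all PBS libraries. Of the 38, 11 had a peak in fewer than 3 PBS lists, the Mitf region at 81.0 kb among them, and 5 in fewer than 3 LPS lists. Because of this, and because these contrasts chose the genes, nothing is read from the counts. The median LPS difference of the 38 was 3.67 points in AF9-experienced and 6.18 in naive mice, against -0.86 and -0.75 over all tested regions. It was positive at 26 and negative at 12 in AF9-experienced mice (44.9% of all positive), and 25 and 12 in naive mice (44.6%). Among regions not described above, falls were at Cd200r3 73.0 kb (-31.3 ± 12.1 in AF9-experienced, -20.7 ± 15.1 in naive mice, SE) and Hdc 19.4 kb (-27.8 ± 9.18, -29.7 ± 11.5). Cd200r1 at 2.3 kb from the lower end of its model fell too (-16.8 ± 11.3, -25.4 ± 14.1). Rises were at Mitf 188.9 kb (14.0 ± 9.61, 30.2 ± 12.0), Hdc 8.8 kb (10.3 ± 6.21, 22.8 ± 7.76) and Cd200r3 75.3 kb (16.15 ± 8.67, 25.1 ± 10.8). The last met the filter of 3 lists only through LPS libraries, so it had to lean that way. Other regions are not listed one by one.

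**Figure D3:**
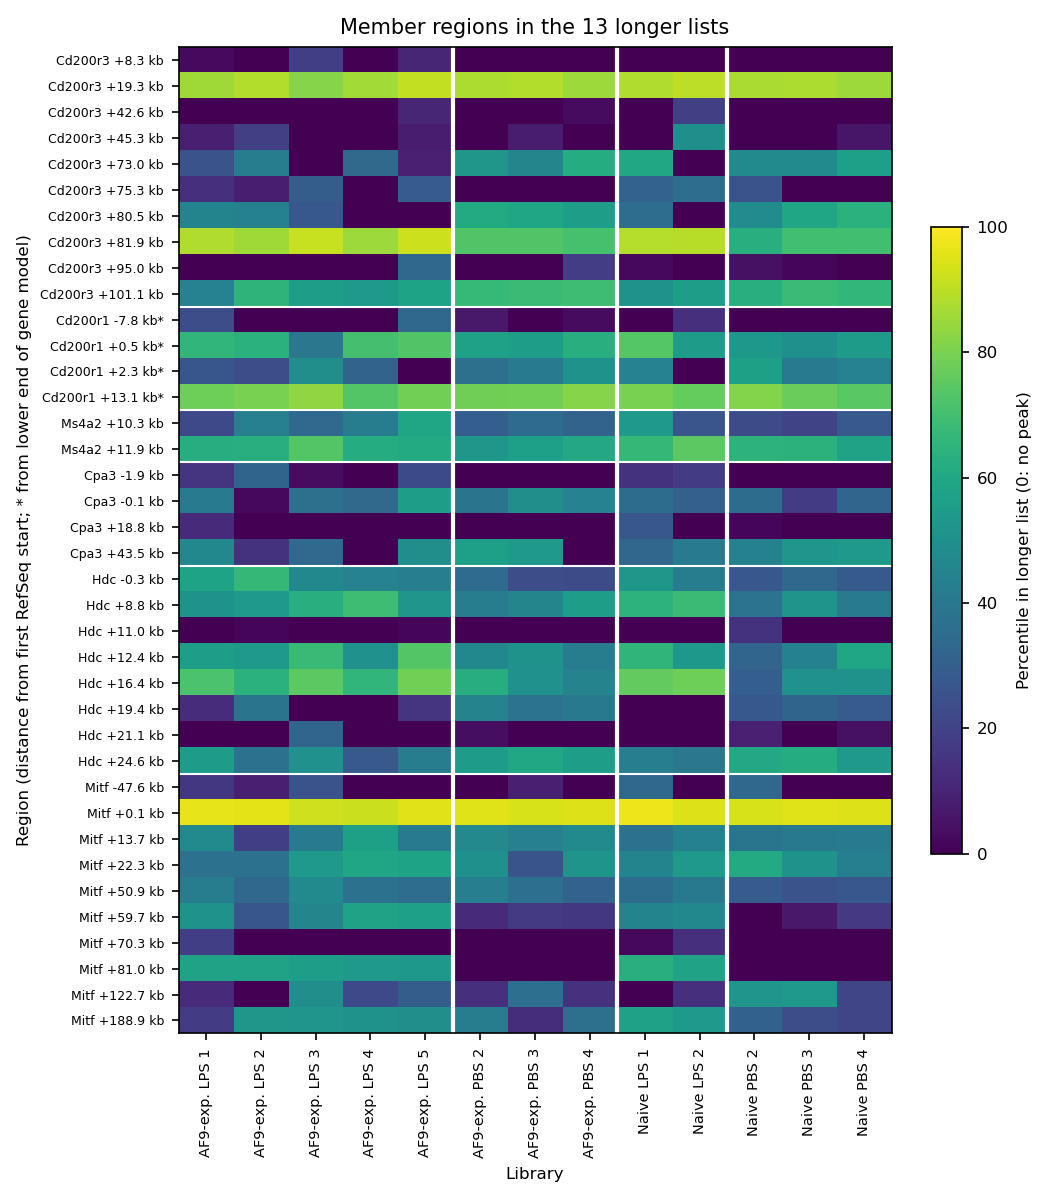
Percentile of the 38 tested member regions (rows, grouped by gene, with distance from the first RefSeq start, or * from the lower end of the model) in the 13 longer lists (columns by group); dark violet is 0, no peak. The Mitf region at 0.1 kb is bright in every column, from 91.9 to 97.3, while the Mitf regions at 59.7 and 81.0 kb are bright mainly in LPS columns.

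**Figure D4:**
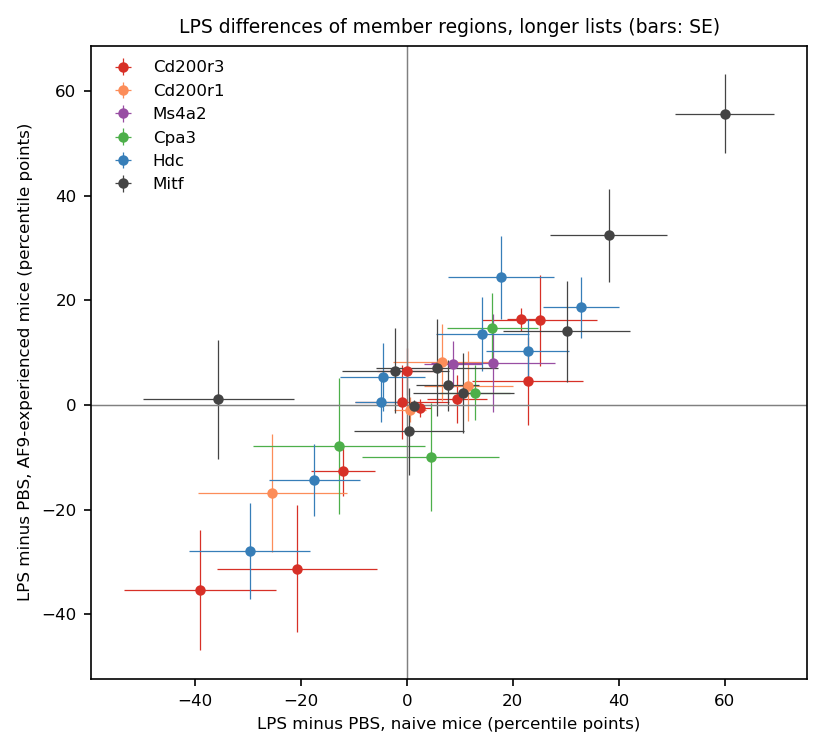
LPS minus PBS in AF9-experienced mice (y axis) and in naive mice (x axis), in percentile points with SE, for the 38 tested member regions in the longer lists, coloured by gene. Values run from -35.4 to 55.7 in AF9-experienced and from -39.1 to 60.1 in naive mice, and the Mitf region at 81.0 kb is at the upper right.

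The comparison that the choice of genes did not use is that of AF9-experienced with naive mice, which asks whether past exposure to leukaemia left a mark on the wild-type cells. No difference between AF9-experienced and naive mice passed the test near any of the 6 genes, after LPS or after PBS. At the Cd200r3 region at 81.9 kb, the mean percentile was 64.4 ± 10.1 (SD, n = 5) in AF9-experienced LPS and 61.6 ± 6.74 (n = 3) in naive LPS libraries, a difference of 2.74 ± 10.4 points (SE; limma adjusted p = 1.0). After PBS it was 16.5 ± 7.02 (n = 4) in AF9-experienced and 17.1 ± 27.7 (n = 4) in naive libraries, a difference of -0.64 ± 10.0 (adjusted p = 1.0). Naive PBS 1 stood at 58.6, and the other naive PBS libraries (0.0 to 5.05) were below every AF9-experienced PBS library (9.34 to 26.2). Leaving out a library gave -6.35 to 13.2 points. In the longer lists the region stood at 70.9 to 72.9 in AF9-experienced PBS and 62.8 to 69.6 in naive PBS libraries. That difference, 4.92 ± 2.43 points, was not called (unadjusted limma p = 0.0582). Differences well beyond such standard errors could also go uncalled. A region of Plcg2, described below, differed by 26.3 ± 7.92 points after LPS and was not called (limma adjusted p = 0.678).

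Across the 7 tested regions, the AF9-experienced minus naive difference after LPS ran from -5.08 to 7.34 points, with 0 called, where 0.0127% of all 23554 regions were, and the smallest unadjusted limma p was 0.398. After PBS it ran from -8.15 to 6.70, with 0 called against 0.0% of all regions, and the smallest p was 0.350. The upper value in each was the Cd200r1 region at 13.1 kb, at 33.4 ± 11.2 (SD, n = 5) in AF9-experienced LPS and 26.1 ± 11.8 (n = 3) in naive LPS libraries. The lower value in each was the Hdc region, at 13.5 ± 14.4 (n = 5) in AF9-experienced LPS and 18.6 ± 16.3 (n = 3) in naive LPS libraries. The Mitf start region was at 82.7 ± 6.33 (n = 5) in AF9-experienced LPS and 85.4 ± 5.65 (n = 3) in naive LPS libraries.

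The interaction, the LPS difference in AF9-experienced mice minus that in naive mice, was called at 0 of the 7 regions (0.0% of all). It ran from -6.12 to 3.38 points, with a smallest unadjusted limma p of 0.287, at the Mitf start region. The upper value was that of the Cd200r3 region at 81.9 kb. At that region, in both list lengths, the interaction is a description and no test. Cd200r3 was chosen for a rise after LPS in both backgrounds, so the choice bears on it. In the longer lists, 0 of the 38 regions was called in any of the 3 comparisons, against 0.0129% of all regions after LPS, 0.0% after PBS and 0.0% for the interaction, and 0 had an unadjusted p under 0.05. Over all 70009 regions of the longer lists, limma gave an unadjusted p under 0.05 at 4285 (6.12%) after LPS, 2175 (3.11%) after PBS and 2756 (3.94%) for the interaction. Over the 23554 regions of the 19100-peak lists, where 0 of the 7 had such a p, the counts were 1268, 753 and 693. The median difference of the 38 was -0.15 points after LPS and 0.84 after PBS, against -0.04 and 0.0 over all regions.

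**Figure D5:**
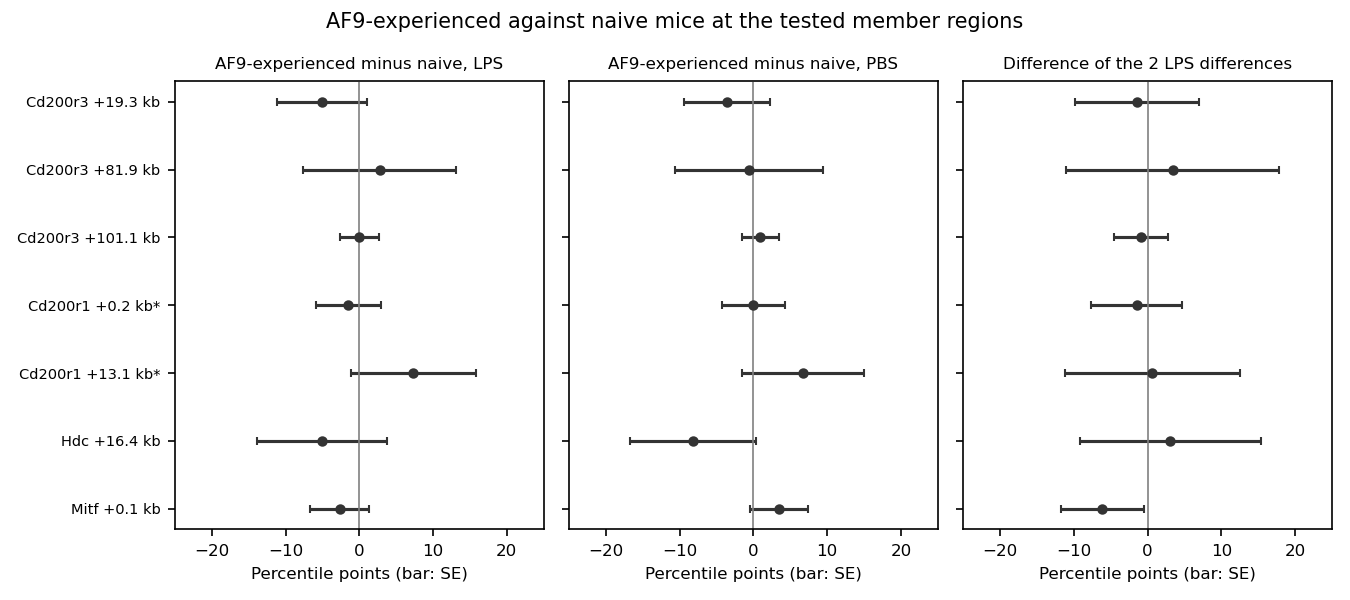
Difference between AF9-experienced and naive mice at the 7 tested regions after LPS (left) and after PBS (middle), and the difference between the LPS differences (right), in percentile points with SE. After LPS the points run from -5.08 to 7.34, after PBS from -8.15 to 6.70, and none was called.

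A wider set of 60 mast cell and basophil genes beyond the 6 was read in the same fit, and 36 of them had a tested region, 97 regions in all. Only autosomal peaks were kept, so Btk, Gata1 and Tfe3, on chromosome X, could have no region. The gene lists were chosen with earlier results of these data known, so their LPS calls are a description and no test. In AF9-experienced mice, 7 regions at 6 genes were called higher after LPS (3.44% of all regions were called higher) and 0 were called lower (1.74%). In naive mice 2 regions at 2 genes were higher (2.0% of all) and 0 lower (1.22%). Of the 7 regions, 3 (at Alox5ap, Plcg2 and Lyn) had a peak in at most 2 of the 8 PBS lists and met the filter of 3 lists through LPS lists, so they had to lean to LPS, and nothing is read from the counts. The median LPS difference of the 97 was 3.58 points in AF9-experienced and 2.17 in naive mice, against -0.18 and 0.0 over all regions. By role, a tested region was found for 9 of 13 genes of immunoglobulin E receptor signalling, 3 of 15 of granule proteases and histamine (Hdc among them), 5 of 6 of lipid mediators, 10 of 12 transcription factors (Mitf among them), 8 of 11 receptors and cytokines, 3 of 5 CD200 receptors and ligand (Cd200r3 and Cd200r1 among them) and 2 of 4 surface proteins. With the longer lists the counts were larger and ran both ways: of 337 regions at 51 genes, 24 regions at 19 genes were called higher and 9 at 8 genes lower in AF9-experienced mice, where 4.93% and 5.53% of all regions were. In naive mice 21 regions at 13 genes were called higher and 7 at 6 genes lower, where 3.91% and 2.82% of all regions were.

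The called genes of the 19100-peak lists were in the list for immunoglobulin E receptor signalling, except Alox5ap, and no theme is read from this. In the longer lists, 10 of 110 such regions were called higher and 4 lower in AF9-experienced mice. The counts were 6 and 2 of 101 for transcription factors, 4 and 3 of 54 for receptors and cytokines and 4 and 0 of 29 for lipid mediators. The other roles had none. Over all regions 4.93% were called higher and 5.53% lower. In the 19100-peak lists Alox5ap, which encodes the 5-lipoxygenase activating protein of leukotriene synthesis, had a region at 62.2 ± 4.20 (SD, n = 5) in AF9-experienced LPS libraries. It was at 3.19 ± 6.38 (n = 4) in AF9-experienced PBS libraries, a difference of 59.0 ± 10.9 points (SE). Inpp5d, encoding the phosphatase SHIP1 that restrains mast cell activation, had a region at 73.2 ± 8.30 in AF9-experienced LPS and 14.9 ± 6.97 in AF9-experienced PBS libraries (adjusted p = 5.39e-04). Plcg2, a phospholipase C, had one at 42.9 ± 10.1 in AF9-experienced LPS and 0.20 ± 0.40 in AF9-experienced PBS libraries. The Alox5ap and Plcg2 regions met the filter only through LPS lists, so their values are a description and their calls are no test. The Inpp5d call is no test either, because the gene lists were chosen with earlier results of these data known. Alox5ap, Inpp5d and Plcg2 each lost the call when ranked in the complete lists, and the limma adjusted p reached 0.612 over the alternatives.

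Syk, the tyrosine kinase that binds the phosphorylated receptor, had a region at 42.3 ± 16.4 (SD, n = 5) in AF9-experienced LPS against 0.94 ± 1.08 (n = 4) in AF9-experienced PBS libraries, and at 41.6 ± 3.94 (n = 3) in naive LPS against 4.56 ± 9.02 (n = 4) in naive PBS libraries. It was called in both backgrounds, at limma adjusted p of 0.00346 and 0.0252. These calls are a description and no test, because the gene lists were chosen with earlier results of these data known. A region linked to Lyn, the Src family kinase that starts receptor signalling, was at 28.2 ± 10.5 in AF9-experienced LPS and 32.0 ± 19.2 in naive LPS libraries and at 0 in all 8 PBS libraries. It entered the fit through LPS lists alone, so these values are a description and its calls are no test. In naive mice the Syk call was lost on leaving out any of 5 libraries, with an adjusted p of up to 0.0925 (without naive LPS 1), and under 5 of 11 other alternatives, ranking by fold enrichment and fitting only the 2 groups among them. The Lyn call there was lost on leaving out any of 8 libraries (up to 0.185, without naive LPS 1) and under 6 of 10 other alternatives, the replicate block among them. In AF9-experienced mice the Lyn call was lost on leaving out any of 5 libraries (up to 0.0801), a second Inpp5d region on leaving out either of 2 (0.0803) and Gab2 on leaving out either of 2 (0.0605). Syk in AF9-experienced mice kept its call whichever single library was left out, and lost it under 4 of 11 other alternatives. Ranking in the complete lists ended all 9 calls. Syk in AF9-experienced mice, Lyn, Gab2 and the second Inpp5d region fell outside the naming rule and were named after their values were seen.

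The other large LPS differences of the wider set did not pass the test. In AF9-experienced mice the lowest were a second Plcg2 region at -28.1 ± 8.74 points (SE), Cebpb, a basophil transcription factor gene, at -26.2 ± 8.94 and Fyn, a Src family kinase gene, at -26.0 ± 7.68. In naive mice the lowest were Fyn at -22.9 ± 8.75, a second Lyn region at -20.2 ± 6.92 and Cebpb at -18.4 ± 10.2. The highest in naive mice, beside Syk, were Alox5ap at 37.1 ± 12.4 and Runx1, a haematopoietic transcription factor gene, at 36.6 ± 10.9.

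Between AF9-experienced and naive mice, 0 of the 97 regions was called after LPS (0.0127% of all), after PBS (0.0%) or for the interaction (0.0%). After LPS the smallest p was at Plcg2, at 42.9 ± 10.1 (SD, n = 5) in AF9-experienced LPS and 16.6 ± 14.9 (n = 3) in naive LPS libraries, a difference of 26.3 ± 7.92 points (SE; limma adjusted p = 0.678). Alox5ap had a second, stronger region at 96.3 ± 1.87 in AF9-experienced LPS and 90.5 ± 1.32 in naive LPS libraries, a difference of 5.81 ± 2.04 (adjusted p = 0.828). The smallest p in the other direction after LPS were at Inpp5d, with a difference of -12.3 ± 6.13, and Cd63, at -9.02 ± 5.81. After PBS they were at Crlf2, at 15.0 ± 8.00, and Alox5ap, at 3.27 ± 1.98, on the higher side, and at Hpgds, at -10.9 ± 5.71, and Lyn, at -17.7 ± 9.53, on the lower side. For the interaction they were at Plcg2, at 29.5 ± 11.0, Cebpb, at 14.8 ± 6.24, Ptgdr2, at -26.2 ± 17.7, and Inpp5d, at -12.3 ± 8.53. Their limma adjusted p was 0.938 to 1.0.

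The tested regions most like the Cd200r3 region at 81.9 kb, by Pearson correlation of the percentile over the 16 libraries, were not at mast cell genes. They were linked to Kdm5a (r = 0.963), a histone demethylase gene, Arsb (0.962), a lysosomal sulphatase gene, Cep70 (0.952), Spef2 (0.951) and Pced1b (0.951). The Arsb region, for example, was at 57.0 to 72.0 in AF9-experienced LPS, 0.0 to 18.8 in AF9-experienced PBS, 63.6 to 66.1 in naive LPS and 0.0 to 37.6 in naive PBS libraries. In all 5 the highest naive PBS value was that of naive PBS 1, as at the Cd200r3 region, and the choice by correlation favoured this. Among the members, the Hdc region at 16.4 kb had r = 0.734 and the others between -0.368 and 0.454. These points share the 4 groups and the list lengths, so r describes the pattern only.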

How the data were processed

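The labels list 32 samples, a pair of technical libraries for every one of 16 biological replicates. Each biological replicate has 1 deposited peak list, which was assigned by its name. The submitters' processing notes list, with no version given, BWA, MACS3, Picard, FastQC and Trim Galore, with build GRCm38. The labels' protocols name both Omni-ATAC and a Chromium chemistry, and filters on reads are not given in the sources used here. Per the file format, each deposited peak carries the authors' fold enrichment (a ratio to the library's own background), the authors' -log10 p-value and the authors' -log10 q-value. The smallest -log10 q per list was at most 1.33. These values were used only within a list. The lists do not give the depth, so it is unknown and no interval on counts is given.

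The 19100 strongest autosomal peaks per list were merged into 31846 regions, and the test took the 23554 found in 3 or more lists. Of the 13 regions linked to the 6 genes, 7 passed this filter, 3 of them with a peak in every list. Longer lists of 59600 peaks in 13 libraries gave 107750 regions, 70009 tested, with 51 linked to the 6 genes and 38 tested. One limma model (limma 3.58.1, R 4.3.3, empirical Bayes with trend and robust options) estimated the 4 group means for each region from all libraries, with Benjamini-Hochberg adjustment within each comparison and calls at an adjusted p under 0.05. The model was tested on simulated data. P-values measure the spread between samples labelled as biological replicates.

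Genes came from RefSeq models (GRCm38.p6), all 6 symbols matching. The members and lists were chosen with earlier results of these data known. Every member gene was described, but not each of its regions. Other genes were named by rule: called regions between AF9-experienced and naive mice, or else the 2 smallest p in each direction, and the 3 largest LPS differences in each direction. Alternatives changed the ranking, list length, overlap, filter, samples fitted and replicate block.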

Additional observations from a re-analysis of the deposited data

Results flagged for a closer look

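Among 55 sets of values checked (a member region in a group of 4 or 5 libraries), 11 had a library far from the rest by Dixon's criterion. Chance meets it in about 1 set in 20 when values are normally distributed. These values are ranks with many at 0, so that rate does not hold here and nothing is read from the count. Naive PBS 1, which has the shortest list, stood apart at the Cd200r3 region chr16:45025356-45025805, at a percentile of 58.6 against 0.0 to 5.05 in the other naive PBS libraries. It also stood apart at the Hdc region chr2:126601927-126602706, at 32.6 against 0 in the others. Naive PBS 3 was at 0.14 at the Cd200r3 region chr16:45044259-45045354, with the others at 0.

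The other 8 were AF9-experienced LPS libraries in the longer lists. AF9-experienced LPS 3 was at 39.5 at the Cd200r1 region chr16:44765634-44766750, against 63.8 to 72.9 in the other libraries. It was at 73.2 at the Ms4a2 region chr19:11611571-11612070, against 61.0 to 63.0, and at 32.6 at the Hdc region chr2:126597356-126597720, where the others were at 0. AF9-experienced LPS 5 was the only one of its group with a peak at the Cd200r3 regions chr16:44986186-44986391, at 10.9, and chr16:45038422-45038952, at 33.5. AF9-experienced LPS 1 was the only one of its group at the Cpa3 region chr3:20222978-20223698, at 11.8, and the Mitf region chr6:97877111-97877633, at 18.6. It was at 17.6 at the Mitf region chr6:97995609-97996230, against 49.6 to 53.0 in the other libraries.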

How the results depend on the processing

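No call was made near the 6 genes in any comparison of AF9-experienced with naive mice under the alternatives run, where adjusted p was 0.746 to 1.0. Over all regions, the comparison after PBS and the interaction gave 0 calls under every alternative. After LPS there were 3 calls, and 0 when ranked by fold, with half-length lists (9550 peaks), with complete lists, by presence at -log10 q of at least 5, with only the 2 groups fitted, or with the replicate block. Leaving out a library gave 0 to 12, longer lists 9, and leaving out the AF9-experienced LPS libraries with chromosome Y peaks 24, both chosen after seeing the data. Deviations from the group means correlated at -0.215 to 0.231 between same-numbered libraries and at -0.302 to 0.241 between the others. With so few libraries per group, this cannot show whether same-numbered libraries shared a batch. The replicate block gave 0 calls after LPS.

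The Cd200r3 LPS difference at chr16:45025356-45025805 was positive in every alternative that gave a value. In AF9-experienced mice (47.9) it was 66.4 by fold, 28.7 in half-length, 18.4 in complete and 16.4 in longer lists, and 44.9 to 51.1 leaving out a library. In naive mice (44.5) it was 19.0 in half-length, 17.1 in complete and 21.7 in longer lists, 62.2 without the 3 short lists and 38.8 to 58.3 leaving out a library. Presence at -log10 q of at least 5 gave no value there, because all 16 lists have the peak. Lists give no read depth, and ranks near 0 cannot show whether a weaker peak was present.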
